A study of Drosophila melanogaster with 12 samples.

Results

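The genes described here are roX1, roX2, msl-1, msl-2, msl-3, mof, mle and Sxl, the dosage compensation machinery of the fly Drosophila melanogaster and the sex switch that controls it. They were chosen by name for their known roles, with earlier results of these data already known. All 8 were found in both deposited tables, which list 16510 genes each. Males of this species carry a single X chromosome, and the male-specific lethal (MSL) complex, an assembly of the MSL1, MSL2, MSL3, MOF and MLE proteins with the non-coding roX1 and roX2 RNAs, binds that X and raises its transcription. In females the SXL protein blocks the splicing, export and translation of msl-2 RNA, so that the complex does not form. The RNAs roX1 and roX2 are largely interchangeable for male survival, and both are abundant in adult males and scarce in adult females. In the early embryo roX1 is transcribed in both sexes, and roX2 is known to come on later.

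RNA was measured in adult heads and in embryos of 2 strains, a p53 mutant labelled p535A-1-4 and a wild type labelled yw, after ionizing radiation or mock treatment. In each tissue the groups were p53 mutant flies given 40 Gy, p53 mutant flies mock treated, wild-type flies given 40 Gy and wild-type flies mock treated. Adults were kept for 1 to 2 weeks and recovered for 3 h after treatment, and their heads are labelled only as mixed, with no statement of what was mixed or in what proportion. Treatment of embryos was given at 3 to 4 h of age, RNA was taken from them after 1.5 h of recovery, and the labels give no sex for them. Chromatin bound by p53 was also precipitated from both tissues of both strains, with no radiation dose listed for these samples. The heads were of adults of 1 to 2 weeks and the embryos were 4.5 to 5.5 h old. Every group was a single library, so nothing below has a replicate check and no p-value is given. The labels do not say that the strains share a genetic background, so differences at p53 and at other loci cannot be told apart in a comparison of strains. In tissue RNA of this kind, fewer cells of a type and less RNA per cell cannot be told apart either.

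Levels are in FPKM, fragment counts scaled by transcript length and library size, and differences are in log2(FPKM + 1), which understates the change of genes at low levels. Estimated from the FPKM values, head libraries held 10.9 to 13.7 M fragments and embryo libraries 19.1 to 22.7 M. Counts of genes cover those whose highest level over the 4 libraries of a tissue was 1 FPKM or more, 10672 genes in heads and 10654 in embryos. The p53 transcript stood at 0.549 and 0.532 FPKM in irradiated and mock mutant heads, against 13.3 and 11.7 FPKM in irradiated and mock wild-type heads. It stood at 0.340 and 0.700 FPKM in the mutant embryos, against 54.5 and 25.9 FPKM in the wild-type ones, so the strain labels held in all 8 libraries. Photoreceptor markers summed to 5023 to 6933 FPKM in heads and to 1.26 to 2.45 FPKM in embryos, matching the tissue labels. Tables of the tissues were normalized separately, so levels set across tissues are descriptive.

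The 8 genes spanned more than an order of magnitude in each tissue. In mock wild-type heads the order by FPKM was roX1, Sxl, roX2, mle, msl-3, msl-2, msl-1 and mof. In mock wild-type embryos the order was roX1, Sxl, mle, msl-3, msl-1, msl-2, mof and roX2. The place of roX2 differed most, the third in heads and the last in embryos. Over the 4 libraries of a tissue the highest level of a gene was 1.05 to 1.57 times its lowest for 6 of the 8 genes in heads, and 1.10 to 1.41 times for 7 of the 8 in embryos. The exceptions were roX2, at 24.3 times in heads and 18.0 times in embryos, and msl-2 in heads, at 2.05 times.

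**Figure D1:**
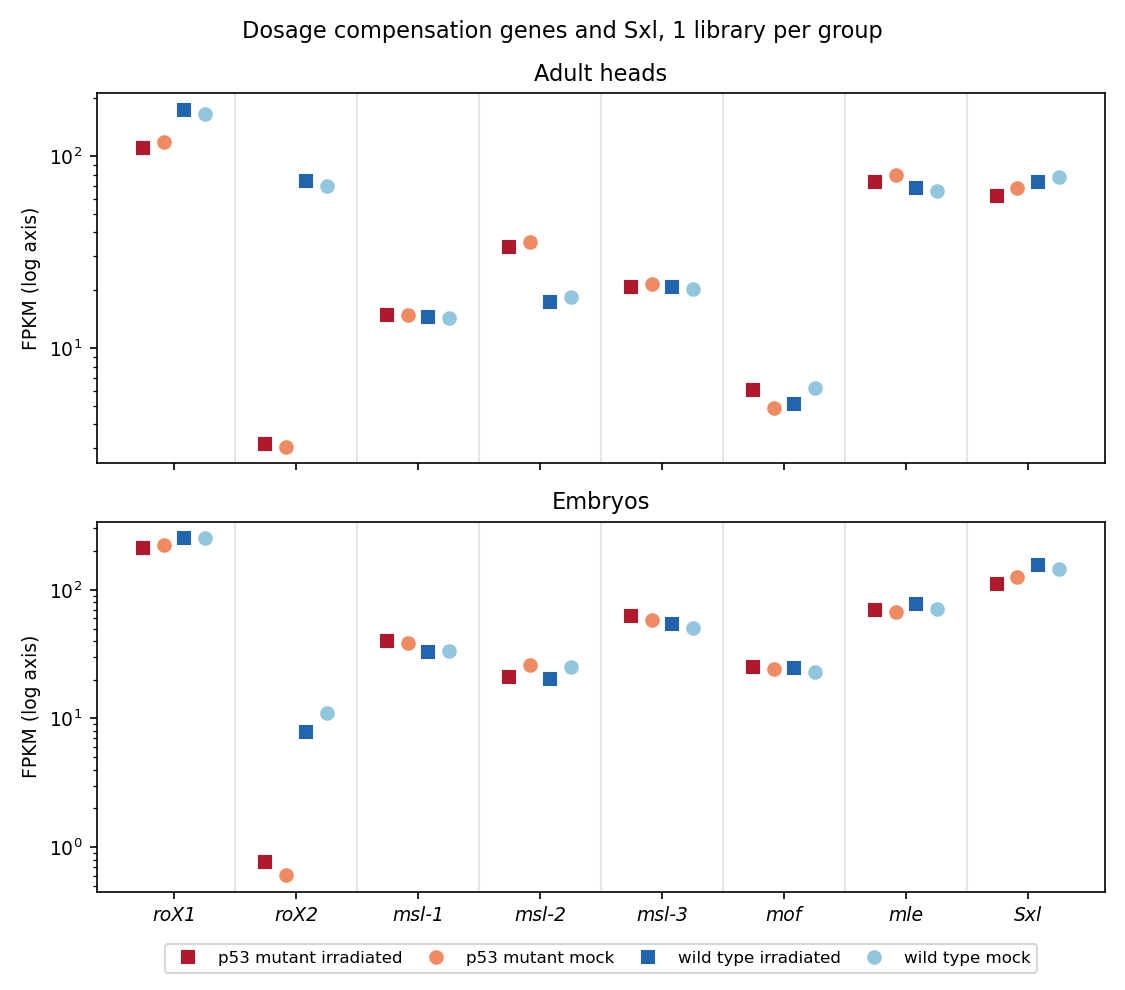
Levels of the 8 genes in FPKM on a log axis, with adult heads above and embryos below. Each point is a single library, in the order p53 mutant irradiated, p53 mutant mock, wild type irradiated and wild type mock within a gene. In heads roX2 stands at 3.06 to 3.17 FPKM in the mutant libraries and at 69.6 to 74.6 FPKM in the wild-type ones, msl-2 is higher in the mutant libraries, and the remaining genes lie close together.

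Among the RNAs of the complex, roX2 differed most between the strains. It lies at X:11579065-11580432 (dm6, plus strand, FBgn0019660) and has 6 annotated transcripts of 522 to 1368 bases. In heads roX2 stood at 3.17 FPKM in irradiated and 3.06 FPKM in mock p53 mutant flies, against 74.6 FPKM in irradiated and 69.6 FPKM in mock wild-type flies. Both mutant libraries were thus far below both wild-type libraries, with and without radiation. The log2 difference between mutant and wild type was -4.18 in irradiated and -4.12 in mock heads. Without the pseudocount the level was 23.5-fold lower in irradiated mutant heads, with a 95% counting interval of 14.1 to 44.3, and 22.7-fold lower in mock mutant heads, with an interval of 13.5 to 41.0. These intervals cover counting error only. They rest on about 14 and 15 fragments in the irradiated and mock mutant libraries, and on about 381 and 283 in the wild-type ones.

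The same direction was seen in embryos at a lower level. There roX2 stood at 0.760 FPKM in irradiated and 0.610 FPKM in mock p53 mutant embryos, against 7.91 FPKM in irradiated and 11.0 FPKM in mock wild-type embryos. It passed the 1 FPKM filter only through the wild-type groups. The log2 difference was -2.34 in irradiated and -2.90 in mock embryos, that is, 10.4-fold lower (counting interval 4.82 to 31.5) and 18.0-fold lower (7.28 to 56.1) without the pseudocount. The mutant values rest on about 6 and 5 fragments. In a ranking of all genes by the size of the difference, only 0.337% of genes in irradiated heads, 0.262% in mock heads, 1.45% in irradiated embryos and 0.770% in mock embryos differed more than roX2.

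The other RNA, roX1, was lower in the mutant by much less. It is annotated at X:3857230-3862697 on the minus strand (FBgn0019661), with transcripts of 3460 to 4832 bases. In heads roX1 stood at 110 FPKM in irradiated and 119 FPKM in mock mutant flies, against 173 FPKM in irradiated and 165 FPKM in mock wild-type flies. Both mutant libraries again lay below both wild-type ones, by a log2 difference of -0.64 in irradiated and -0.47 in mock heads. In embryos roX1 stood at 211 FPKM in irradiated and 224 FPKM in mock mutants, against 251 FPKM in both wild-type groups, a log2 difference of -0.25 with and -0.17 without radiation. The counting intervals of all 4 ratios left out 1, and their widest reach was 0.614 to 0.909. The deposited locus of roX1 spans 51.0 kb, because it was merged with those of the neighbouring genes ec and CG2901, and how fragments were divided there is not given in the sources used here. Reads of opposite strands were separable by the library kit, but whether the counting used strand is not given either.

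The part of the summed roX level made up by roX2 also differed between the strains. In heads it was 2.79% in irradiated and 2.51% in mock mutants, against 30.1% in irradiated and 29.6% in mock wild type. In embryos it was 0.358% and 0.272% in irradiated and mock mutants, against 3.06% and 4.19% in irradiated and mock wild type. The summed level of both RNAs in heads was 114 FPKM in irradiated and 122 FPKM in mock mutants, against 248 and 235 FPKM in irradiated and mock wild type. In embryos, where roX1 dominated, the sums lay closer, at 212 and 224 FPKM in irradiated and mock mutants, against 259 and 262 FPKM in irradiated and mock wild type.

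Of the protein genes, msl-2 was the only one past 1.5-fold between the strains. MSL2 is the RING finger subunit whose presence in males decides whether the complex forms, and its gene lies on an autosome, at 2L:3462218-3466112 (minus strand, FBgn0005616). In heads msl-2 stood at 33.6 FPKM in irradiated and 35.7 FPKM in mock p53 mutants, against 17.4 FPKM in irradiated and 18.4 FPKM in mock wild type. Both mutant libraries were above both wild-type ones, the direction opposite to that of the roX RNAs. The ratio of mutant to wild type was 1.93 (counting interval 1.77 to 2.10) in irradiated and 1.94 (1.78 to 2.12) in mock heads, and the log2 differences of 0.91 and 0.92 fell just short of 2-fold. In embryos msl-2 did not separate the strains. It stood at 20.8 FPKM in irradiated and 26.0 FPKM in mock mutants, against 20.4 FPKM in irradiated and 25.2 FPKM in mock wild type, and the counting intervals of the strain ratios, 0.953 to 1.10 in irradiated and 0.966 to 1.10 in mock embryos, both held 1.

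The remaining subunits kept similar levels in the strains. The msl-1 transcript encodes the scaffold of the complex and lies at 2L:18683720-18688800 (FBgn0005617). In heads it stood at 14.9 FPKM in irradiated and 14.8 FPKM in mock mutants, against 14.5 and 14.3 FPKM in irradiated and mock wild type. In embryos msl-1 stood at 40.2 FPKM in irradiated and 38.9 FPKM in mock mutants, against 32.6 and 33.6 FPKM in irradiated and mock wild type. The embryonic values were thus higher in both mutant libraries, by log2 differences of 0.29 and 0.20 in irradiated and mock embryos.

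The msl-3 gene, at 3L:7123213-7125533 (FBgn0002775), encodes the chromodomain subunit that binds methylated histone H3 on active genes. In heads its 4 values lay between 20.4 and 21.4 FPKM with no separation of strains. In embryos it stood at 63.1 FPKM in irradiated and 58.5 FPKM in mock mutants, against 53.9 and 50.6 FPKM in irradiated and mock wild type, log2 differences of 0.22 and 0.21. Like msl-1, it was slightly higher in both mutant embryo libraries. The deposited locus of msl-3 spans 30.7 kb, far more than its annotated gene, so it was merged with others as roX1 was.

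The gene mof encodes the histone H4 lysine acetyltransferase of the complex, which also works in the non-specific lethal (NSL) complex of both sexes, and it is itself X-linked, at X:5873840-5876853 (FBgn0014340). It was the lowest of the 8 in wild-type heads. It stood at 6.05 FPKM in irradiated and 4.85 FPKM in mock mutant heads, against 5.10 and 6.18 FPKM in irradiated and mock wild-type heads, and the strains overlapped. In embryos its 4 values ran from 23.0 to 25.2 FPKM, and the strains overlapped there too.

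The gene mle encodes the RNA helicase that remodels the roX RNAs so that the other subunits can bind, and lies at 2R:5974857-5980778 (FBgn0002774). In heads mle stood at 73.7 FPKM in irradiated and 79.8 FPKM in mock mutants, against 68.1 and 65.6 FPKM in irradiated and mock wild type, so both mutant libraries were higher. In embryos both were lower, at 69.8 FPKM in irradiated and 67.5 FPKM in mock mutants, against 77.3 and 70.7 FPKM in irradiated and mock wild type. All of these differences were under 0.28 on the log2 scale.

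Set against its partners, msl-2 RNA was in a different proportion in mutant heads. The level of msl-2 was 2.25 times that of msl-1 in irradiated and 2.41 times in mock mutant heads, against 1.20 and 1.29 times in irradiated and mock wild-type heads. Relative to mle it was 0.456 and 0.448 in irradiated and mock mutant heads, against 0.256 and 0.281 in irradiated and mock wild-type heads. In embryos the msl-2 to msl-1 ratio was 0.518 and 0.669 in irradiated and mock mutants, against 0.625 and 0.750 in irradiated and mock wild type, so both mutant values were below the wild-type value of the same treatment. Relative to mle the order was the opposite, at 0.298 and 0.385 in irradiated and mock mutant embryos, against 0.263 and 0.357 in irradiated and mock wild-type embryos.

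Sxl encodes the RNA-binding protein that is the female master switch, and it lies at X:7074550-7098053 (minus strand, FBgn0264270) with 25 annotated transcripts. Its level summed over those transcripts does not show the sex-specific splicing that decides whether active protein is made. In heads Sxl stood at 62.1 FPKM in irradiated and 68.0 FPKM in mock p53 mutants, against 73.5 and 77.9 FPKM in irradiated and mock wild type. In embryos it stood at 110 FPKM in irradiated and 127 FPKM in mock mutants, against 155 and 144 FPKM in irradiated and mock wild type. Both mutant libraries were below both wild-type libraries in each tissue. The log2 differences were -0.24 and -0.19 in irradiated and mock heads and -0.49 and -0.19 in irradiated and mock embryos.

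Counted at 2-fold, 1 of the 8 genes, roX2, differed between the strains in each of the 4 strain comparisons. Over all genes the share past 2-fold was 8.1% in irradiated heads, 7.59% in mock heads, 9.48% in irradiated embryos and 7.38% in mock embryos, so a count of 1 in 8 is near that background. At 1.5-fold the count was 3 in irradiated heads (roX1, roX2 and msl-2), where 18.3% of all genes passed, and 2 in mock heads (roX2 and msl-2), where 18% passed. In embryos roX2 alone passed 1.5-fold, against 23.5% of all genes in irradiated and 17.7% in mock embryos. In the strain comparisons the median difference of the 8 genes lay between -0.07 and 0.02, and that of all genes between -0.02 and 0.03. Genes lower in the mutant by 2-fold in all 4 strain comparisons were fewer: 29 of the 9242 genes counted in both tissues, or 0.314%, and roX2 was the only one of the 8 among them. By the mean of its 4 differences it was the fifth of those 29. Of the 29 genes 7 were X-linked, and of the 60 genes higher in all 4 comparisons 9 were, where 16.7% of the 9242 genes were X-linked.

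**Figure D2:**
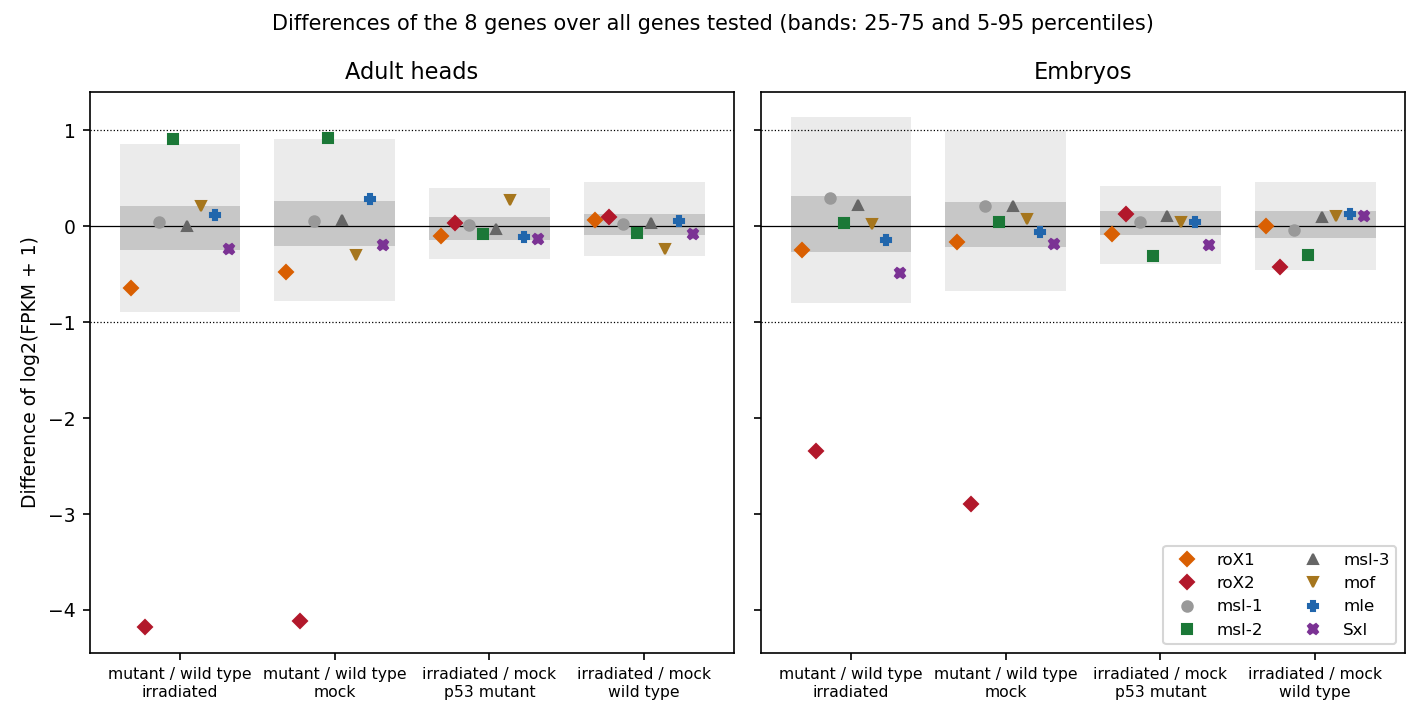
Differences of the 8 genes in log2(FPKM + 1) for heads on the left and embryos on the right, over the spread of all genes counted (dark band, 25th to 75th percentile; light band, 5th to 95th percentile). Dotted lines mark 2-fold. In both strain comparisons of each tissue roX2 lies far below the bands, at -4.18 and -4.12 in irradiated and mock heads, msl-2 lies at the upper edge of the light band in heads, and no gene of the 8 passes 2-fold after radiation.

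Radiation moved none of the 8 genes past 1.5-fold in either strain or tissue. Past 2-fold there were 0 of 8 in each case, while over all genes the share was 1.37% in p53 mutant heads, 2.01% in wild-type heads, 1.97% in p53 mutant embryos and 2.22% in wild-type embryos. The comparisons of irradiated with mock flies share their libraries with the strain comparisons, so the values are set side by side only. In heads the largest differences were those of mof, 0.27 in the mutant and -0.24 in the wild type. In embryos msl-2 was lower after radiation in both strains, with log2 differences of -0.31 in the mutant and -0.30 in the wild type. The ratios were 0.800 (counting interval 0.750 to 0.854) in the mutant and 0.807 (0.753 to 0.865) in the wild type. A larger difference than that of msl-2 was seen for 16.5% of all genes in mutant and 21.6% in wild-type embryos. The embryonic roX2 value differed by -0.43 in the wild type, with a ratio of 0.719 and an interval of 0.505 to 1.02, and by 0.13 in the mutant, with an interval of 0.291 to 4.74. Both intervals held 1, and that of the mutant, which rests on about 6 and 5 fragments, reaches past 2-fold both ways, so a difference of that size was not detectable at this depth.

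The genes beside roX2 did not share its difference. Within 2 kb of it lie CG11695, nod, which encodes a kinesin-like protein for chromosomes in female meiosis, and CG1561. In heads CG11695, which lies 258 bases from roX2, stood at 21.9 FPKM in irradiated and 21.5 FPKM in mock p53 mutants, against 19.9 and 20.8 FPKM in irradiated and mock wild type. The log2 differences of nod were -0.40 and 0.02 in irradiated and mock heads, and those of CG1561 were 0.20 and 0.40. In embryos the 3 genes differed by -0.06 and -0.19 for CG11695, by -0.39 and -0.28 for nod and by -0.44 and -0.47 for CG1561, irradiated embryos first. None came near the difference of roX2.

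**Figure D3:**
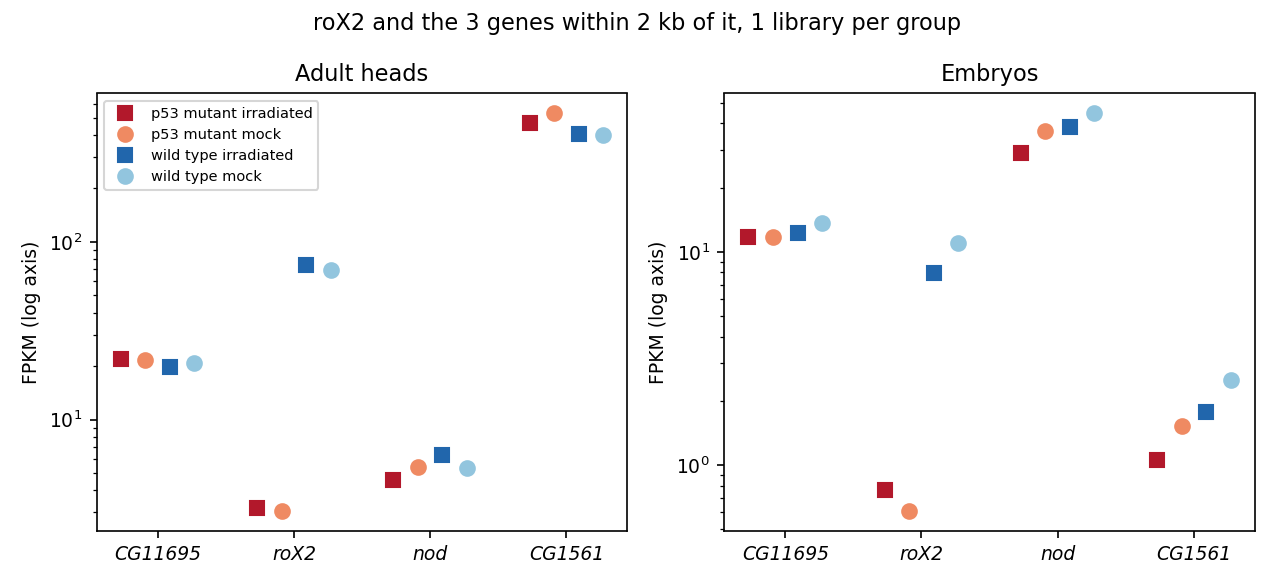
Levels of roX2 and of the 3 genes within 2 kb of it, in FPKM on a log axis, in heads on the left and embryos on the right. Each point is a single library. In heads CG11695 stands at 19.9 to 21.9 FPKM in all 4 libraries, while roX2 stands at 3.06 to 3.17 FPKM in the mutant and at 69.6 to 74.6 FPKM in the wild-type libraries.

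Around roX1 the 2 kb window holds CG2901, ec, CG2930, yin, CR44117 and fd3F. In heads CG2901 and CR44117 were listed at 0 in every library and ec, a predicted ubiquitin protease, stood between 1.41 and 1.91 FPKM. The genes CG2930 and yin, an oligopeptide transporter, differed between the strains by -0.12 and -0.21 and by 0.28 and 0.30 in irradiated and mock heads. In embryos ec was lower in the mutant by 0.35 and 0.45, irradiated embryos first, and CG2930 differed by 0.71 in irradiated and 0.11 in mock embryos. The forkhead gene fd3F did not exceed 1.31 FPKM in any of the libraries.

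The summed roX level bears on the sex mix of the samples, and so do markers of adult sex. In heads the female markers are the yolk protein genes Yp1, Yp2 and Yp3 and the fat body gene fit, and the male markers are Obp99b, Cyp4d21 and sxe2. The 4 female markers summed to 5927 and 5641 FPKM in irradiated and mock p53 mutant heads, against 6368 and 7509 FPKM in irradiated and mock wild-type heads. None was past 2-fold between the strains, where 8.1% of all genes were in irradiated and 7.59% in mock heads, so a count of 0 in 4 is near that background. Of the female markers, Yp3 and Yp2 had the highest mean levels, with differences of -0.34 and 0.18 in irradiated and -0.77 and -0.02 in mock heads. Also lower in both mutant libraries were fit and Yp1, named after their values were seen. Their differences were -0.71 and -0.05 in irradiated and -0.79 and -0.35 in mock heads.

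The 3 male markers summed to 175 and 190 FPKM in irradiated and mock mutant heads, against 423 and 402 FPKM in irradiated and mock wild-type heads. Obp99b, an odorant binding protein gene, accounted for most of this, at 29.5 and 42.7 FPKM in irradiated and mock mutants, against 204 FPKM in both wild-type groups. The P450 gene Cyp4d21, also called sxe1, was nearly level, at 44.9 and 46.4 FPKM in irradiated and mock mutants, against 48.3 and 49.0 FPKM in irradiated and mock wild type. The lipase gene sxe2 differed by -0.76 and -0.56 in irradiated and mock heads. All 3 male markers were thus lower in both mutant head libraries, by very different amounts. The median difference of the male list was -0.76 in irradiated and -0.56 in mock heads. That of the female list was -0.19 in irradiated and -0.56 in mock heads. The part of sex mix in the roX2 difference was not tested.

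Transcripts of reproductive tissues differed among the head libraries, some of them mainly in a single mutant library. Accessory gland transcripts summed to 6.10 and 43.0 FPKM in irradiated and mock mutant heads, against 1.65 and 0.958 FPKM in irradiated and mock wild-type heads. The sum in mock mutant heads came mainly from Mst57Db at 26.9 FPKM, Acp95EF at 7.86 FPKM and SP, the sex peptide, at 4.90 FPKM, each listed at 0 in the 3 remaining libraries of heads. Acp95EF also stood at 11.5 to 21.2 FPKM in embryos of both strains, so it was not particular to adult tissue. Mst57Da was present in both mutant libraries, at 1.94 and 1.77 FPKM in irradiated and mock heads, and listed at 0 in both wild-type ones. Of the 13 accessory gland genes, 4 were listed at 0 in each mutant head library, against 9 and 10 in irradiated and mock wild-type heads. Of the 15 testis genes, Tektin-C, which encodes a protein of sperm tails, stood at 72.8 and 69.0 FPKM in irradiated and mock mutant heads, against 0.379 and 0.880 FPKM in irradiated and mock wild-type heads. Its strain difference was not limited to adults, since it stood at 41.3 and 37.3 FPKM in irradiated and mock mutant embryos. In irradiated and mock wild-type embryos it stood at 2.17 and 1.30 FPKM. Of the testis genes, 3 were past 2-fold and higher in irradiated mutant heads and 1, Tektin-C, in mock ones, and 0 were lower past 2-fold. Among all 10672 genes counted, 404 were higher past 2-fold in irradiated and 462 in mock heads, so 1 of 15 in mock heads is near that background. Mst84Dc, Mst87F and Mst98Ca, at 1.37 to 1.44 FPKM in irradiated mutant heads, differed between the strains by 1.29, 0.82 and 1.24 in irradiated and by 0.71, -0.54 and 0.34 in mock heads. The genes bol and can, named after their values were seen, were lower in the mutant, by -0.63 and -0.49 in irradiated and -0.37 and -0.49 in mock heads. The Y-linked sperm motor genes kl-2 and kl-3 were listed at 0 in every library, and kl-5 did not exceed 0.0100 FPKM. Eggshell transcripts summed to 13.9 and 4.12 FPKM in irradiated and mock mutant heads, against 3.91 and 5.49 FPKM in irradiated and mock wild-type heads. Vm26Aa, Vm26Ab and Cp18 differed between the strains by 1.18, 0.98 and 1.29 in irradiated and by -0.89, -0.07 and -0.38 in mock heads. The part of these reproductive transcripts in the differences of the 8 genes was not tested.

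**Figure D4:**
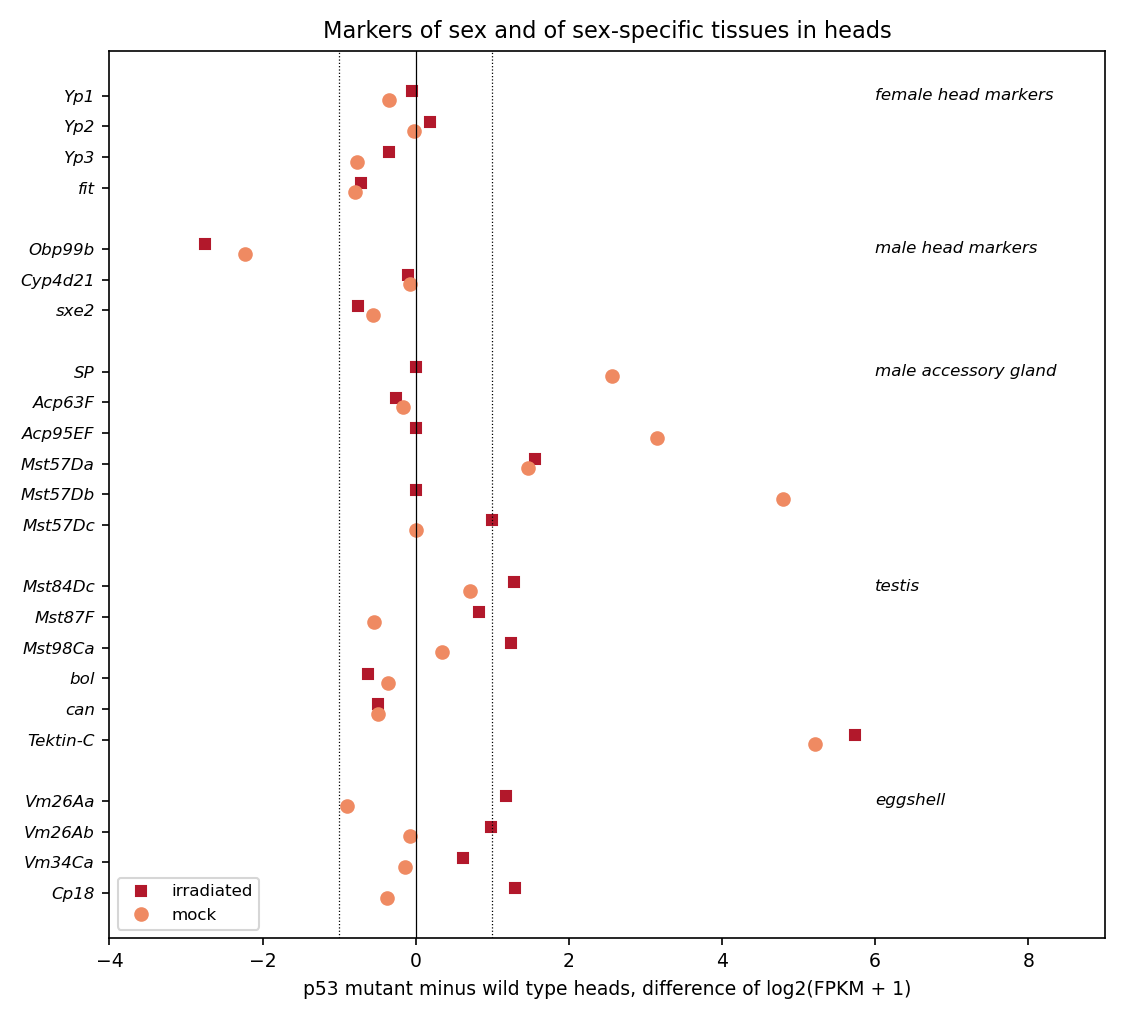
Difference between p53 mutant and wild-type heads in log2(FPKM + 1) for markers of adult sex and of sex-specific tissues that reached 1 FPKM, with squares for irradiated and circles for mock heads. Dotted lines mark 2-fold. The female markers lie within 2-fold, Obp99b lies at -2.75 and -2.23 in irradiated and mock heads while Cyp4d21 lies near 0, Mst57Db, Acp95EF and SP are high in mock heads only, and Tektin-C and Mst57Da are high in both.

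Adult sex markers carry little information in embryos. Summed, the 4 female markers reached 1.18 and 1.21 FPKM in irradiated and mock mutant embryos, against 2.28 and 2.36 FPKM in irradiated and mock wild-type embryos. Tektin-C was again higher in the mutant, at 41.3 and 37.3 FPKM, against 2.17 and 1.30 FPKM in irradiated and mock wild-type embryos. Of the 9 maternal transcripts, which the egg receives from the mother and the embryo then degrades, 4 were higher in the mutant past 2-fold in irradiated and 7 in mock embryos. Among all 10654 genes counted, 685 were higher past 2-fold in irradiated and 526 in mock embryos. Levels of the 9 maternal transcripts summed to 246 and 196 FPKM in irradiated and mock mutant embryos, against 125 and 87.5 FPKM in irradiated and mock wild-type embryos. Among them twe, a meiotic phosphatase gene, stood at 28.1 and 23.0 FPKM in irradiated and mock mutants, against 13.2 and 7.78 FPKM in irradiated and mock wild type. The differences of swa, tor and osk were 1.43, 1.42 and 0.84 in irradiated and 1.06, 1.41 and 0.89 in mock embryos, so osk stayed under 2-fold there. In mock heads osk was past 2-fold, at 1.19, but at low levels of 1.82 FPKM in the mutant and 0.239 FPKM in the wild type. Its difference in irradiated heads was 0.29. The part of these maternal transcripts, or of the stage of the embryos, in the embryonic roX2 values was not tested.

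Genes upstream of and around the complex showed no difference of the size of roX2, which at most 1.45% of all genes exceeded in a strain comparison. Of the 13 genes listed for the sex determination hierarchy, all were counted in both tissues and none passed 2-fold in any comparison. The share of all genes past 2-fold was 7.38% to 9.48% between the strains and 1.37% to 2.22% after radiation. A count of 0 in 13 is thus near that background. Median strain differences of the 13 genes were 0.05 and 0.04 in irradiated and mock heads and -0.11 and -0.06 in irradiated and mock embryos. The most abundant in heads were Ythdc1, a reader of methylated adenosine that aids the splicing of Sxl, and fl(2)d, of the enzyme complex that writes that mark, with strain differences of 0.12 and -0.12 in irradiated heads. In embryos these were snf, which encodes a spliceosome protein needed for Sxl splicing, and nito, of the same writer complex as fl(2)d, with differences of 0.46 and -0.41 in irradiated and 0.17 and -0.31 in mock embryos. As for Sxl, levels of tra, dsx and fru do not show their sex-specific splicing.

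Of the genes through which the early embryo counts its X chromosomes, all 8 were counted in embryos and 4 in heads. None passed 2-fold, which is near the background of 7.38% to 9.48% of all genes between the strains. In embryos the X-linked activator sisA stood at 68.7 and 68.9 FPKM in irradiated and mock mutants, against 73.2 and 72.0 FPKM in irradiated and mock wild type, and was picked for its role after its values were seen. The repressor genes emc and gro had the highest means, with strain differences of 0.09 and 0.00 in irradiated and 0.11 and -0.05 in mock embryos.

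Of the 8 cofactors of the MSL complex none passed 2-fold, which is near the background of 7.38% to 9.48% of all genes between the strains. Their median strain differences were -0.17 and -0.11 in irradiated and mock heads and -0.18 and -0.10 in irradiated and mock embryos. The most abundant in heads, Hrb27C, a hnRNP gene, and CG4747 differed by -0.21 and 0.09 in irradiated heads and by -0.21 and -0.01 in mock heads. Unr, named here after its values were seen, encodes an RNA-binding protein that acts with SXL to block translation of msl-2 in females and binds roX RNA in males. It stood at 20.6 and 21.5 FPKM in irradiated and mock mutant heads, against 32.5 and 32.0 FPKM in irradiated and mock wild-type heads, log2 differences of -0.64 and -0.55. In embryos the Unr differences were -0.26 and -0.25. None of the 6 NSL complex genes, which share the MOF enzyme, passed 2-fold, again near that background. Their medians lay between -0.06 and 0.07 over the 4 strain comparisons. Among these genes Rcd5 and Rcd1, the most abundant in heads, differed by 0.14 and -0.14 in irradiated and by 0.30 and 0.06 in mock heads.

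The X as a whole, on which the complex acts, differed little from the autosomes. In heads the median strain difference of the 1750 X-linked genes counted was 0.02 in irradiated and 0.00 in mock flies, against -0.02 and 0.03 for the 8825 autosomal genes. In embryos the X median was -0.05 in both irradiated and mock animals, against 0.02 and 0.00 for the autosomes. The X median thus lay 0.04 above the autosomal one in irradiated and 0.03 below it in mock heads, and below it by 0.07 and 0.05 in irradiated and mock embryos. These gaps were larger than the range of the medians of 2L, 2R, 3L and 3R, 0.0185 to 0.0294 on the log2 scale in the 4 strain comparisons, but in heads they had opposite signs with and without radiation. Between irradiated and mock libraries of the same strain, the gap was 0.04 in mutant heads, where the arm range was 0.0187. The gap was also larger than the arm range in wild-type heads, at -0.0132 against 0.0124, and in mutant embryos, at -0.0259 against 0.0183. In wild-type embryos it was 0.0014, within the range of 0.0195. The median level of X-linked genes at 1 FPKM or more was 1.01 and 0.948 times that of autosomal ones in irradiated and mock mutant heads, against 0.981 and 0.973 times in irradiated and mock wild-type heads. In embryos it was 0.892 and 0.938 times in irradiated and mock mutants, against 0.991 and 0.938 times in irradiated and mock wild type.

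**Figure D5:**
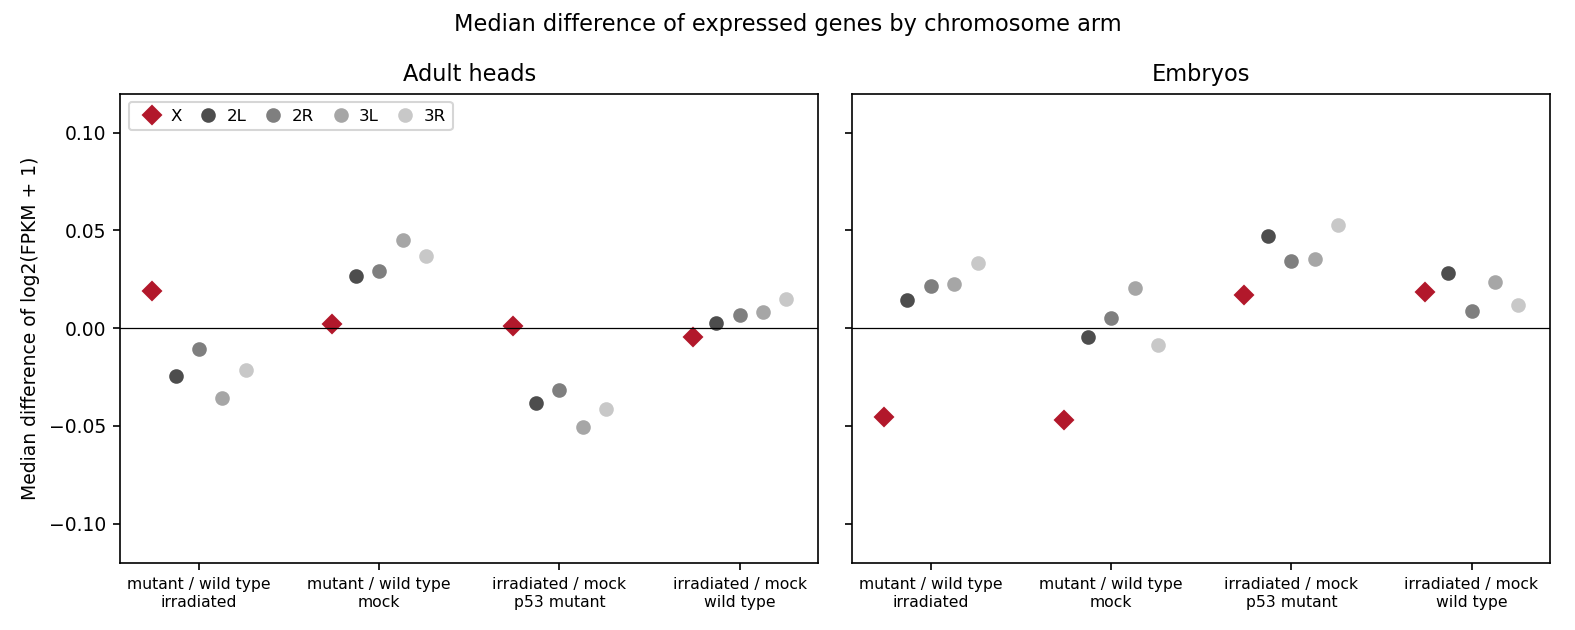
Median difference of log2(FPKM + 1) over the genes counted on the X (diamonds) and on the autosomal arms 2L, 2R, 3L and 3R (circles), in heads on the left and embryos on the right. All medians lie within 0.06 of 0. The X lies below the autosomal arms in both strain comparisons of embryos, at -0.05, and on opposite sides of them in irradiated and mock heads.

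The genes whose levels followed roX1 and roX2 most closely were sought by Pearson correlation over the 8 libraries, after the mean of each tissue was taken out. The search covered 7011 genes whose highest level was 5 FPKM or more in each tissue. The 8 libraries fall into 2 strains, so any gene that differs by strain scores high, and the values are a description only. For roX2 the closest were Jheh3, phr, lwr, CG34293 and Hn, each with r of 0.995 to 0.996, none of them X-linked. Of these Jheh3, phr and lwr encode a juvenile hormone epoxide hydrolase, a photolyase that repairs light damage in DNA and the SUMO conjugating enzyme, and Hn encodes phenylalanine hydroxylase. Their strain differences in mock heads, -1.75, -1.17, -1.37, -2.67 and -1.10, were smaller than that of roX2. For roX1 the closest were tutl, CG7255, lsn, CG6912 and jvl, with r of 0.989 to 0.994, and again none was X-linked. Among these tutl, an immunoglobulin superfamily gene of the nervous system, differed by -0.78 and -0.62 in irradiated and mock heads.

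No deposited p53 peak lay near any of the 8 genes. The authors' lists, of wild-type over p53 mutant chromatin, hold 392 peaks in heads and 135 in embryos, and 0 of the 8 genes had a peak within 5 kb or within 20 kb in either tissue. Over all genes matched to the annotation, 5.15% had a peak within 5 kb and 13.8% within 20 kb in heads, and 1.42% and 3.86% in embryos, so a count of 0 in 8 is near that background. The nearest was 20.5 kb from mof, in heads, at X:5897404-5897647, with a deposited fold of 3.86. The nearest peak to roX1 was 76.0 kb away in heads and 80.4 kb away in embryos. For roX2 the distances were 134 kb in heads and 1492 kb in embryos. Peaks were called with the mutant as background and at the depth the authors had, so a weaker binding site is not covered by these lists.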

How the data were processed

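RNA was measured in 8 libraries and p53 chromatin in 4, with 1 per group. Libraries of polyA RNA were stranded and read from both ends, per the labels. The submitters' processing notes name dm6 and, for RNA, Cuffdiff, TopHat2, SAMtools, Picard and cutadapt, and for chromatin, MACS2, Bowtie2, SAMtools, Picard and cutadapt. Not given in the sources used here are versions, the gene annotation, the strand setting of the counting and any pooling of libraries. In the RNA tables, 1 per tissue, the authors deposited FPKM per gene and group, per the file headers. FPKM divides fragments among overlapping genes, and a scaling by library hides a change in total RNA per cell. Each peak in the authors' 2 deposited lists has a −log10 p, a −log10 q and a fold, the ratio of wild-type to mutant chromatin.

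Computed here, in Python 3.11.15 with numpy 2.4.6, pandas 2.3.3 and scipy 1.17.1, were differences of log2(FPKM + 1) within a table (genes with a highest level of 1 FPKM or more) and counts past 2-fold and 1.5-fold. Depth was read as the step common to FPKM times length over 4175 genes with a single transcript of 800 to 3000 bp, with 150 bp taken off the length. Over 6 reductions it ran from 9.22 to 16.6 M fragments per head library and up to 25.1 M, at least 16.9 M, per embryo library. Exact binomial intervals (95%) of ratios use the shortest annotated transcript and cover counting error only. Symbols and chromosomes come from the tables; gene models, identifiers and strands come from the Ensembl release 115 annotation, whose coordinates are those of dm6, and 13883 of 16510 symbols matched it.

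The 8 genes, the other gene lists and the tests were chosen with earlier results of these data known. From each list up to 4 genes are named, first those past 2-fold between the strains in mock heads, then those past 2-fold elsewhere, and otherwise the 2 with the highest mean level. For roX1 and roX2 the 5 genes of closest pattern and all genes within 2 kb are named. The lists of photoreceptors, neurons and glia are given as sums only, and in heads neuron markers summed to 560 to 587 FPKM and glia markers to 766 to 889 FPKM. Alternatives tried were a pseudocount of 0.1 FPKM, centring on the autosomal median, no filter, a filter of 5 FPKM, other length reductions, the longest transcript and a distance of 20 kb for peaks.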

Additional observations from a re-analysis of the deposited data

Results flagged for a closer look

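Effects are listed here whose counting intervals left out 1 on opposite sides in the groups set side by side. The difference itself was not tested, and the intervals hold no spread between animals or libraries. The response of roX1 to radiation in heads was -0.10 in the p53 mutant and 0.07 in the wild type, 0.17 lower in the mutant (-0.17). The response of Sxl in embryos was -0.20 in the mutant and 0.10 in the wild type, a difference of -0.30. For mle the difference between mutant and wild type was negative in embryos and positive in heads. It was -0.15 against 0.11 in irradiated animals and -0.07 against 0.28 in mock ones, embryos first, so that embryos minus heads gave -0.26 and -0.34. All of these are under 1.5-fold.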

How the results depend on the processing

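The 64 log2 differences of the 8 genes kept within their counting intervals with a pseudocount of 0.1 FPKM, and 63 of 64 did after centring on the autosomal median. The exception was roX1 after radiation in mutant embryos, at -0.12 once centred. With a pseudocount of 0.1 FPKM the strain difference of roX2 was -4.51 and -4.46 in irradiated and mock heads, and -3.22 and -3.97 in irradiated and mock embryos, so its size in embryos depends on the pseudocount. At 1.5-fold instead of 2-fold the genes past the threshold were 3 in irradiated and 2 in mock heads between the strains. A pseudocount of 0.1 FPKM raised the count of all genes past 2-fold to 1536 in irradiated and 1274 in mock embryos between the strains, against 1010 and 786. After radiation it gave 369 in mutant and 480 in wild-type heads, and 427 in mutant and 486 in wild-type embryos, against 146, 214, 210 and 236. Dropping the filter cannot change these counts, since no gene under 1 FPKM in all libraries can pass 2-fold in log2(FPKM + 1). Genes lower in all strain comparisons numbered 35 without the pair of mock heads, an alternative chosen after seeing the data, against 29.

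Of the 8 genes, those whose interval left out 1 after radiation numbered 5 in wild-type embryos with 250 bp taken off the length, 4 with the other reductions tried or the longest transcript, and 3 as reported with 150 bp. In wild-type heads they numbered 2 with the longest transcript, also chosen after seeing the data, against 1. The cause was not tested. The X minus autosome values moved by less than the range of the autosomal arms under both alternatives, and 0 genes had a peak within 20 kb. No paired analysis was possible because each group holds 1 library, and comparisons are given per treatment instead. Depth limits roX2 most, since its mutant levels rest on 5 to 15 estimated fragments.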

Other observations

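The X held a larger part of the p53 peaks in heads than in embryos. It carried 108 of 392 peaks (27.6%) in heads and 17 of 135 (12.6%) in embryos, where 16.4% of expressed genes are X-linked in each tissue. The median deposited fold was 3.42 on the X against 2.72 elsewhere in heads, and 2.63 against 2.45 in embryos, within lists called separately. The folds set wild-type over mutant chromatin, so a difference in X copies between the samples would enter them, and its part was not tested. The genes beside roX2 in the ranking of those lower in all 4 strain comparisons were Cyp4p2, CG32581, p53 and CG32641, with mean log2 differences of -4.32, -4.27, -3.90 and -3.55, against -3.38 for roX2. Of these CG32581 and CG32641 are X-linked.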
